A study of Mus musculus with 14 samples.

Results

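The 10 genes described here encode proteins that move water, urea or sodium across epithelial membranes, and they were chosen by name from the 55228 genes of the count tables. They comprise 5 aquaporins (Aqp1, Aqp3, Aqp4, Aqp5 and Aqp11), the urea transporter Slc14a1, the epithelial sodium channel subunits Scnn1a, Scnn1b and Scnn1g, and the sodium pump subunit Atp1b3. Their RNA was measured by RNA-seq in epithelium of the developing mouse bladder and urethra, a study made to find genes particular to each compartment. The mice were wildtype, untreated embryos of the CD-1 strain, an outbred stock, at embryonic day 14.5 (E14.5) or E18.5. Each library combined the bladder or the urethral epithelium of all female embryos in 1 litter, and there were 4 libraries per tissue at the earlier stage and 3 per tissue at the later. Epithelium was parted from mesenchyme by trypsin and forceps, so a library can hold remnants of other layers. No group in the comparisons carried an engineered allele or received an agent.

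Aquaporins are membrane pores that pass water, and some of them, Aqp3 among them, also pass glycerol. Slc14a1 encodes UT-B, a facilitated urea transporter known from red blood cells, kidney vessels and urothelium, the lining of the urinary tract. The epithelial sodium channel, ENaC, is built from alpha, beta and gamma subunits encoded by Scnn1a, Scnn1b and Scnn1g, and it lets sodium enter cells from the lumen, while the sodium-potassium pump, whose alpha and beta subunits include the beta 3 subunit Atp1b3, moves sodium out across the basolateral membrane.

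The promoter windows of 3 members are shown, since Scnn1g and Scnn1b are neighbours on chromosome 7 with unlike values and Aqp3 was the most abundant member. The windows come from RefSeq on GRCm38.p6 and span 300 bases, 250 before and 50 after the annotated start, written 5′ to 3′ on the strand of the gene. Scnn1g lies at chr7:121734229-121734528 on the plus strand, Scnn1b at chr7:121864788-121865087 on the plus strand, and Aqp3 at chr4:41098134-41098433 on the minus strand. Capitals mark matches to a GC box or to a TATA sequence.
Scnn1g: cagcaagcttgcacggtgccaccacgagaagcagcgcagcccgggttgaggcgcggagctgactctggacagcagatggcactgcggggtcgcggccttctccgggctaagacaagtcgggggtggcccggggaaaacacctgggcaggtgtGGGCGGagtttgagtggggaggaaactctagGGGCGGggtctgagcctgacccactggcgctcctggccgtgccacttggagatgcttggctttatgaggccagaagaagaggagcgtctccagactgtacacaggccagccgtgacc
Scnn1b: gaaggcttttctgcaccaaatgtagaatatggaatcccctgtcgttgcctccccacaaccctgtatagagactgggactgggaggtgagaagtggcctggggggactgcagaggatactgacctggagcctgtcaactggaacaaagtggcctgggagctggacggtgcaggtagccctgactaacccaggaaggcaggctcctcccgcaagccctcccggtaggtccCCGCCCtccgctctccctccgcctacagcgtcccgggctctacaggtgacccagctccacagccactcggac
Aqp3: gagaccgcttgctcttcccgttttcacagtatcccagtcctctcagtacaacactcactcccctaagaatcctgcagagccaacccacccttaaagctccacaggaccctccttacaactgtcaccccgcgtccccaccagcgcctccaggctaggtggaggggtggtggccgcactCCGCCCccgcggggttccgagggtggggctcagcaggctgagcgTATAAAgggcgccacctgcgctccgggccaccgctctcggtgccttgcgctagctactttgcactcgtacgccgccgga
Motifs were searched on both strands, the GC box as GGGCGG, the TATA sequence as TATAAA, the GATA motif as AGATAA, the GRHL motif as AACNNGTT, the AP-1 motif as TGANTCA and the AP-2 motif as GCCNNNGGC. The Scnn1g window held GC boxes at positions -98 and -67 from the start, the Scnn1b window held 1 at -22, and the Aqp3 window held 1 at -73 with a TATA match at -29. Among 32851 RefSeq promoter windows, 35.7% held a GC box, 13.6% the TATA match, 11.2% the GATA match, 4.2% the GRHL match, 7.81% the AP-1 match and 16.6% the AP-2 match. Windows were found for 7 members, and none of the 7 held the GATA, GRHL or AP-1 letters. These matches are descriptions of the letters in the windows, and no binding was measured. The Scnn1g and Scnn1b genes, annotated in GRCm38 at chr7:121734479-121768475 and chr7:121865038-121918514, are read from the same strand, lie 96.6 kb apart and have 1 non-coding gene between them.

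Library totals ran from 21.1 to 36.8 M counts. Levels are given in CPM, the usual per-library scaling of counts, here on the effective library size. The summed level of 6 urothelial marker genes, uroplakins and Krt20, ranged at E14.5 over 3499 to 6573 CPM in bladder against 309.8 to 1833 CPM in urethra, and at E18.5 over 6525 to 9695 CPM against 2065 to 2229 CPM. Epithelial markers shared by both tissues were present in every library, but the level of these 7 genes differed between tissues. At E14.5 they summed to 4014 to 4639 CPM in bladder against 1656 to 3659 CPM in urethra. At E18.5 the sums were 2651 to 3413 CPM against 3573 to 4170 CPM. By edgeR 5 of the 7 were higher in bladder at E14.5 and 3 were lower in bladder at E18.5. A scaling on these genes assumes that their level does not differ between tissues. The urethral E14.5 replicate 1 stood apart from its group: its urothelial sum was 1833 CPM against 309.8 to 524.5 CPM in the other urethral libraries, and its shared epithelial sum was 3659 CPM against 1656 to 2217 CPM. The bladder libraries at E18.5 held the most RNA of other layers, with 12 mesenchyme markers summing to 19130 to 29040 CPM against 4279 to 5128 CPM in urethra. In such mixtures, fewer cells of a type and less RNA per cell cannot be told apart.

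At E14.5 the members that passed were higher in bladder than in urethra, while Aqp4, which had too few counts for this test, was found in urethra and not in bladder. Of the 8 members with enough counts to be tested, 5 were higher in bladder (Aqp3, Slc14a1, Scnn1g, Aqp11 and Atp1b3, the last lower when libraries were scaled on 7 shared epithelial genes), and 3 did not pass (Aqp1, Scnn1a and Scnn1b). A gene passed when its adjusted p from edgeR's quasi-likelihood test was under 0.05. The number lower in bladder was 0 by edgeR and by DESeq2, and at an unadjusted p under 0.05 it was 0 and 1. The background was high, since 44.0% of 16697 genes passed at that stage, 23.1% as higher in bladder and 20.9% as higher in urethra. The median log2 difference of bladder minus urethra was 0.73 over the 8 members and -0.035 over all genes. Without urethral replicate 1, 6 members passed, as Aqp1 was then lower in bladder, and 49.2% of 17066 genes passed. Scaling the libraries on 7 shared epithelial genes moved the median of all genes to -0.98 and the split of all calls to 540 higher and 11293 lower in bladder, and the members then split 3 and 3, with Aqp3, Slc14a1 and Scnn1g higher and Aqp1, Scnn1a and Atp1b3 lower in bladder.

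At E18.5 the members parted in 2 directions. Aqp1, Aqp3, Aqp11, Slc14a1 and Atp1b3 were higher in bladder, Aqp4, Scnn1a and Scnn1b were higher in urethra, and Aqp5 and Scnn1g did not pass. Across all genes 37.9% of 17513 passed, 19.3% as higher in bladder and 18.6% as higher in urethra. The median log2 difference was 0.41 over the 10 members and -0.026 over all genes. Scaling on the shared epithelial genes moved the median of all genes to 0.36 and the split of all calls to 5143 higher and 1338 lower in bladder, and the members then split 6 and 3, with Scnn1g added to the higher side.

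**Figure D1:**
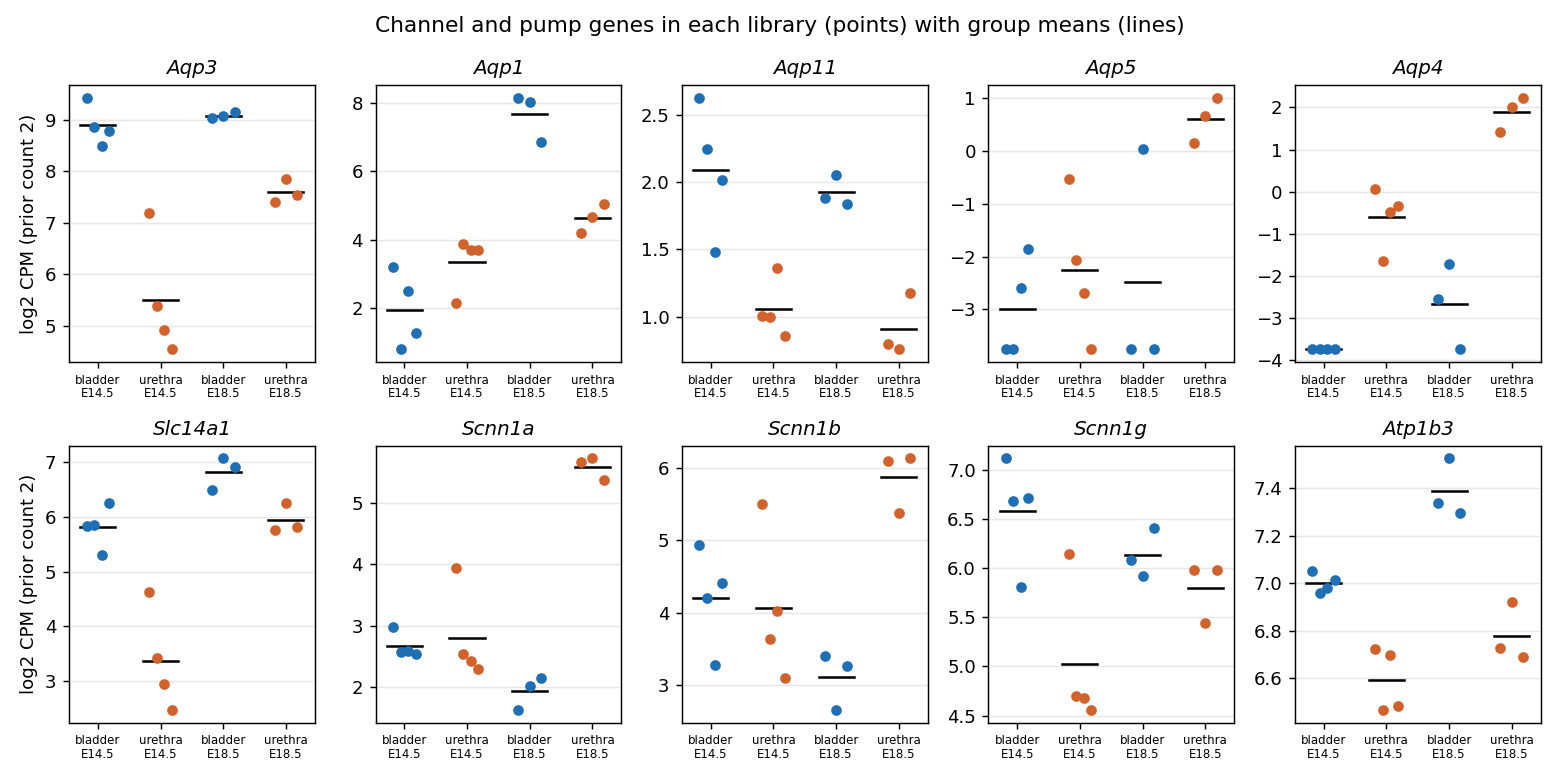
Level of each member in each library, in log2 CPM with a prior count of 2 (y axis, its own range in each panel), for bladder (blue) and urethra (orange) at E14.5 and E18.5 with group means as lines. Aqp3, Slc14a1, Aqp11 and Atp1b3 lie higher in bladder at both stages, Scnn1a and Scnn1b are highest in urethra at E18.5, and urethral E14.5 replicate 1 (the leftmost orange point of that group) sits above its group for Aqp3, Scnn1a and Scnn1g.

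Aqp3, an aquaglyceroporin of basolateral membranes, made up most of the aquaporin RNA in each group. In bladder at E14.5 it stood at 689.5, 463, 360.3 and 436 CPM in replicates 1 to 4, and in urethra at 145, 41.6, 29.9 and 23.2 CPM. In bladder at E18.5 it stood at 520.5, 537 and 564 CPM, and in urethra at 169, 230.0 and 186 CPM. The tissues did not overlap at either stage, and the lowest bladder library was above the highest urethral library of both stages. The difference of bladder minus urethra was a log2 of 3.00 ± 0.59 (SE, adjusted p = 0.0045 by edgeR) at E14.5, a 7.98-fold difference, and 1.42 ± 0.13 (adjusted p = 0.000139) at E18.5. Without urethral replicate 1 the E14.5 difference was 3.92 (adjusted p = 9.86e-05). Aqp3 formed 99.2% ± 0.38 (SD, n = 4) of the summed CPM per kb of exon of the 5 aquaporins in bladder at E14.5 and 80.8% ± 11.6 (n = 4) in urethra. At E18.5 its share was 78.1% ± 8.19 (n = 3) in bladder and 90.6% ± 2.50 (n = 3) in urethra.

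Aqp1, a water channel known from vessel endothelium, red blood cells and kidney, was the member with the largest stage difference. Bladder at E14.5 held 9.18, 1.65, 5.57 and 2.32 CPM of Aqp1 in replicates 1 to 4, and urethra 4.36, 14.5, 12.8 and 13 CPM. Bladder at E18.5 held 287, 260.5 and 115 CPM and urethra 18.3, 25.2 and 32.9 CPM. The 3 bladder libraries at E18.5 were each above every other library, and at E14.5 the tissues overlapped. Bladder minus urethra was -1.29 ± 0.58 (adjusted p = 0.103, edgeR) at E14.5 and 3.05 ± 0.35 (adjusted p = 0.000335) at E18.5, an 8.28-fold difference. Without bladder replicate 1 or without urethral replicate 1 the E14.5 difference passed, at -1.89 (adjusted p = 0.0319) and -1.55 (adjusted p = 0.0433). It also passed under the scaling on shared epithelial genes, at -2.30 (adjusted p = 0.00896), and with a mesenchyme score as a covariate it was 0.013 (adjusted p = 0.988).

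Markers of the vessel wall and of other layers moved with Aqp1. All 10 endothelial markers were higher in bladder at E18.5, their sum was 315.5 to 470.2 CPM there against 66.9 to 111.1 CPM in urethra, and none of them was at 0 in a library. At E14.5 that sum overlapped, at 32.9 to 139 CPM in bladder against 30.8 to 238 CPM in urethra. The endothelial marker Pecam1 averaged 88.4 CPM in bladder and 13.7 CPM in urethra at E18.5. Of the 12 mesenchyme markers, 9 were higher in bladder at E18.5. The summed level of 9 erythroid genes was 879.4 to 1294 CPM in bladder against 238.6 to 516.8 CPM in urethra, with 5 of 7 tested genes higher in bladder. The part of these cells in the Aqp1 difference was not tested. With a mesenchyme score as a covariate the E18.5 difference of Aqp1 was 0.10 (adjusted p = 0.97), in a fit where the score itself separates the tissues and only 1 of all genes passed.

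**Figure D2:**
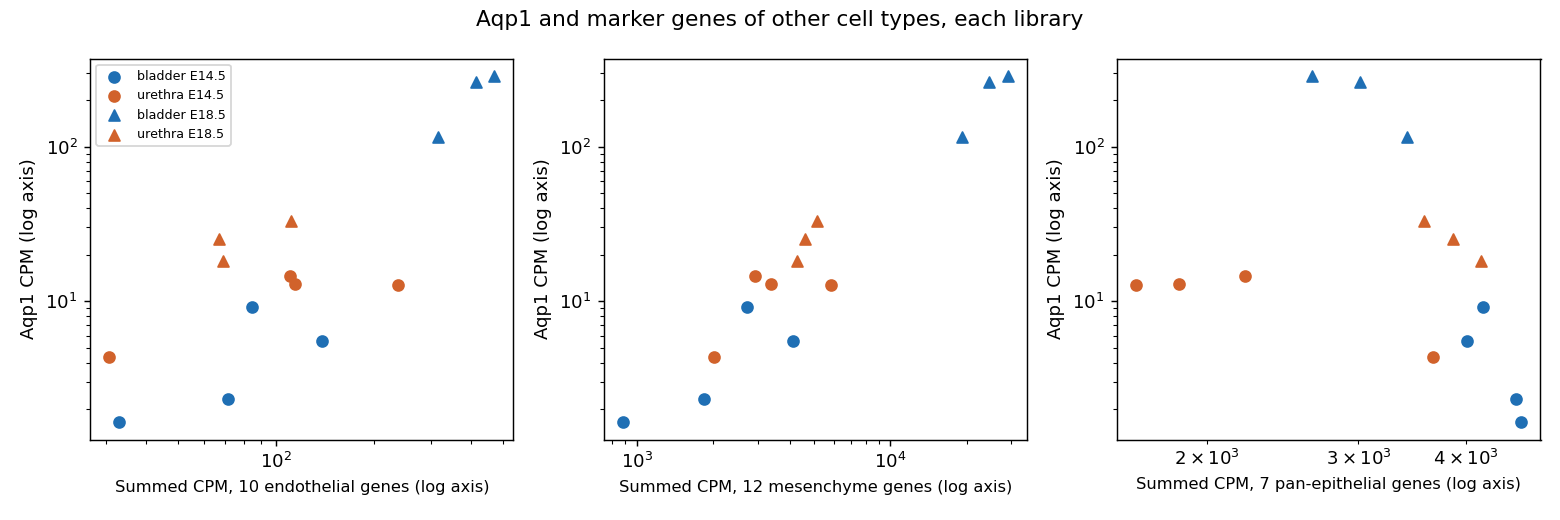
Aqp1 level in each library (y axis, CPM, log axis) against the summed CPM of 10 endothelial, 12 mesenchyme and 7 shared epithelial marker genes (x axes, log), with colours for tissue and symbols for stage. The 3 bladder libraries at E18.5 lie at the top right in the endothelial and mesenchyme panels, at 115 CPM of Aqp1 or more, and to the left of the urethral libraries of that stage in the epithelial panel.

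Aqp11, an intracellular aquaporin, was low but higher in bladder at both stages. It ran from 2.71 to 6.11 CPM in bladder and from 1.73 to 2.49 CPM in urethra at E14.5, and from 3.49 to 4.07 CPM against 1.62 to 2.18 CPM at E18.5. No bladder library of either stage overlapped a urethral one. The log2 difference of bladder minus urethra was 1.08 ± 0.28 (adjusted p = 0.0147, edgeR) at E14.5 and 0.97 ± 0.27 (adjusted p = 0.0219) at E18.5. The E18.5 difference stopped passing when bladder replicate 2 (adjusted p = 0.0636), urethral replicate 1 (0.0862) or urethral replicate 2 (0.0561) was left out. The E14.5 difference did not pass under the scaling on shared epithelial genes (0.099, adjusted p = 0.833) or with the mesenchyme score (1.01, adjusted p = 0.114).

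Aqp4, the main water channel of brain astrocytes and also found in skeletal muscle and in some glands and kidney ducts, was found mainly in the urethral libraries. In bladder it had 0 counts in each of the 4 libraries at E14.5 and 2, 6 and 0 counts at E18.5. In urethra it had 22, 6, 16 and 18 counts at E14.5 and 61, 134 and 166 counts at E18.5, which is 0.968, 0.246, 0.642 and 0.709 CPM and then 2.60, 3.94 and 4.64 CPM. The tissues did not overlap at either stage. At E14.5 the gene fell under the filter on low counts, and urethra was at least 25.4-fold higher against 3 counts in the whole bladder group. Fitted without the filter, the E14.5 difference had an adjusted p of 0.00186 by edgeR. At E18.5 bladder minus urethra was -5.03 ± 0.66 (adjusted p = 0.000632). Skeletal muscle markers overlapped between the tissues at E14.5 in their sum, and did not share a direction at E18.5. At E14.5 the sum of 8 of them was 4.39 to 50.6 CPM in urethra and 3.39 to 11.2 CPM in bladder. At E18.5 that sum was 264.5 to 521.1 CPM in urethra and 544.3 to 1738 CPM in bladder, where Acta1 alone averaged 899.8 CPM against 197.1 CPM in urethra. By edgeR 4 of the 8 were higher in urethra at E18.5 (Myh3, Myog, Myod1 and Actn2) and 3 higher in bladder, and the muscle regulator Myod1 averaged 6.75 CPM in urethra and 0.0899 CPM in bladder. The part of muscle cells in the Aqp4 values was not tested.

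Aqp5, a water channel of gland and airway epithelium, was near the limit of detection. Its group totals were 8 counts in bladder and 20 in urethra at E14.5 and 25 in bladder and 144 in urethra at E18.5. The 25 bladder counts at E18.5 came from replicate 2 alone, at 0.952 CPM, and the other bladder libraries had 0. Urethra at E18.5 held 1.02, 1.50 and 1.93 CPM, each above every bladder library. The E18.5 difference was -2.19 ± 1.05 (adjusted p = 0.135, edgeR) and passed without bladder replicate 2 (adjusted p = 0.00229). At E14.5 Aqp5 was under the filter, and its difference did not pass when fitted without it (adjusted p = 0.404).

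Of the 7 other aquaporin genes, Mip, Aqp2, Aqp6, Aqp7, Aqp8, Aqp9 and Aqp12, none had enough counts to be tested. Their group means reached at most 0.423 CPM, for Aqp7, an aquaglyceroporin of fat cells, in bladder at E18.5. Aqp2, the vasopressin-regulated channel of kidney collecting ducts, and Aqp8 had 0 counts in all 14 libraries.

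Slc14a1 was higher in bladder at both stages and rose between stages in urethra. In bladder it stood at 57.0, 58.0, 39.2 and 76.7 CPM at E14.5 and at 89.9, 134 and 121 CPM at E18.5. In urethra it stood at 24.6, 10.6, 7.63 and 5.47 CPM at E14.5 and at 54.3, 76.7 and 56.5 CPM at E18.5. Within each stage the tissues did not overlap, whereas urethra at E18.5 lay in the range of bladder at E14.5. Bladder minus urethra was 2.23 ± 0.45 (adjusted p = 0.00495, edgeR) at E14.5 and 0.83 ± 0.18 (adjusted p = 0.00796) at E18.5, or 4.69-fold and 1.77-fold. The E18.5 call was lost when all 14 libraries shared 1 fit (0.88, adjusted p = 0.122). The rise in urethra from E14.5 to E18.5 was 2.38 ± 0.40 (adjusted p = 0.00108), and the stage difference in bladder was 1.00 ± 0.39 (adjusted p = 0.0553). That bladder difference passed under 7 alternatives, among them DESeq2 (1.01, adjusted p = 0.0329), the scaling on shared epithelial genes (1.54, adjusted p = 0.000366) and the mesenchyme score (2.55, adjusted p = 0.0486). Slc14a2, the kidney urea transporter UT-A, was low: it had 2 counts in bladder and 86 in urethra at E14.5 and 14 and 20 counts at E18.5.

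The genes of the ENaC subunits did not share a pattern. Scnn1a, which encodes the alpha subunit that the channel needs for most of its conductance, was low in every group but urethra at E18.5. It stood at 7.75, 5.86, 5.93 and 5.75 CPM in bladder and at 15.3, 5.74, 5.30 and 4.80 CPM in urethra at E14.5. At E18.5 it stood at 3.00, 3.96 and 4.33 CPM in bladder and at 51.1, 53.2 and 41.4 CPM in urethra. The tissues overlapped at the earlier stage, and at the later one the lowest urethral library was far above the highest bladder library. Bladder minus urethra was -0.32 ± 0.38 (adjusted p = 0.509, edgeR) at E14.5 and -3.74 ± 0.19 (adjusted p = 1.2e-05) at E18.5, a 13.4-fold difference. Without urethral replicate 1 the E14.5 difference was 0.23 (adjusted p = 0.332), and under the scaling on shared epithelial genes it was -1.08 and passed (adjusted p = 0.0115).

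Scnn1b, the beta subunit, followed Scnn1a at E18.5. It stood at 30.6, 18.3, 9.57 and 21.1 CPM in bladder and at 45.3, 12.3, 16.1 and 8.47 CPM in urethra at E14.5. At E18.5 bladder held 10.5, 6.21 and 9.49 CPM and urethra 68.5, 41.7 and 70.2 CPM. The tissues overlapped at E14.5 and not at E18.5. Bladder minus urethra was -0.075 ± 0.54 (adjusted p = 0.919, edgeR) at E14.5 and -2.84 ± 0.27 (adjusted p = 0.000144) at E18.5, a 7.18-fold difference. Without urethral replicate 1 the E14.5 difference was 0.66 (adjusted p = 0.179).

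Scnn1g, the gamma subunit, was the most abundant subunit per kb of exon in 3 of the 4 groups and was the subunit that was higher in bladder at E14.5. It stood at 139, 103, 56.0 and 105 CPM in bladder and at 70.5, 26.0, 25.6 and 23.5 CPM in urethra at E14.5. At E18.5 it stood at 67.7, 60.5 and 84.7 CPM in bladder and at 63.1, 43.3 and 63.0 CPM in urethra. The tissues overlapped at both stages, at E14.5 through urethral replicate 1. Bladder minus urethra was 1.44 ± 0.41 (adjusted p = 0.0214, edgeR) at E14.5 and 0.28 ± 0.19 (adjusted p = 0.291) at E18.5. The E14.5 difference was 1.98 (adjusted p = 0.000824) without urethral replicate 1, and it stopped passing when bladder replicate 1 (adjusted p = 0.057) or urethral replicate 2 (0.0607), 3 (0.0548) or 4 (0.0593) was left out. The difference was 0.66 (adjusted p = 0.0498) at E14.5 and 0.64 (adjusted p = 0.0242) at E18.5 when libraries were scaled on shared epithelial genes.

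Per kb of exon, the make-up of the subunit RNA differed between tissues and stages. In bladder Scnn1g formed 78.9% ± 1.20 (SD, n = 4) of the summed CPM per kb of the 3 subunits at E14.5 and 84.9% ± 1.82 (n = 3) at E18.5. In urethra its share was 57.4% ± 5.22 (n = 4) at E14.5 and 35.1% ± 1.49 (n = 3) at E18.5. Scnn1a formed 3.90% ± 1.42 and 3.30% ± 0.719 in bladder at the 2 stages, and 8.82% ± 0.753 and 22.7% ± 6.45 in urethra. The log2 ratio of Scnn1g to Scnn1a averaged 4.40 in bladder and 2.70 in urethra at E14.5, and 4.71 and 0.67 at E18.5, with no overlap between tissues at either stage. The exact permutation test, two-sided, gave p = 0.0286 at E14.5 and p = 0.1 at E18.5, each the smallest value the design allows, and 0.114 and 0.2 after adjustment over 4 ratios. The ratio of Scnn1b to Scnn1a averaged 2.2 in bladder and 1.92 in urethra at E14.5 (exact permutation p = 0.486, adjusted 0.486), and 1.85 and 0.93 at E18.5 (exact permutation p = 0.2, adjusted 0.267). By this test no ratio could pass an adjusted p of 0.05 with these sample numbers.

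**Figure D3:**
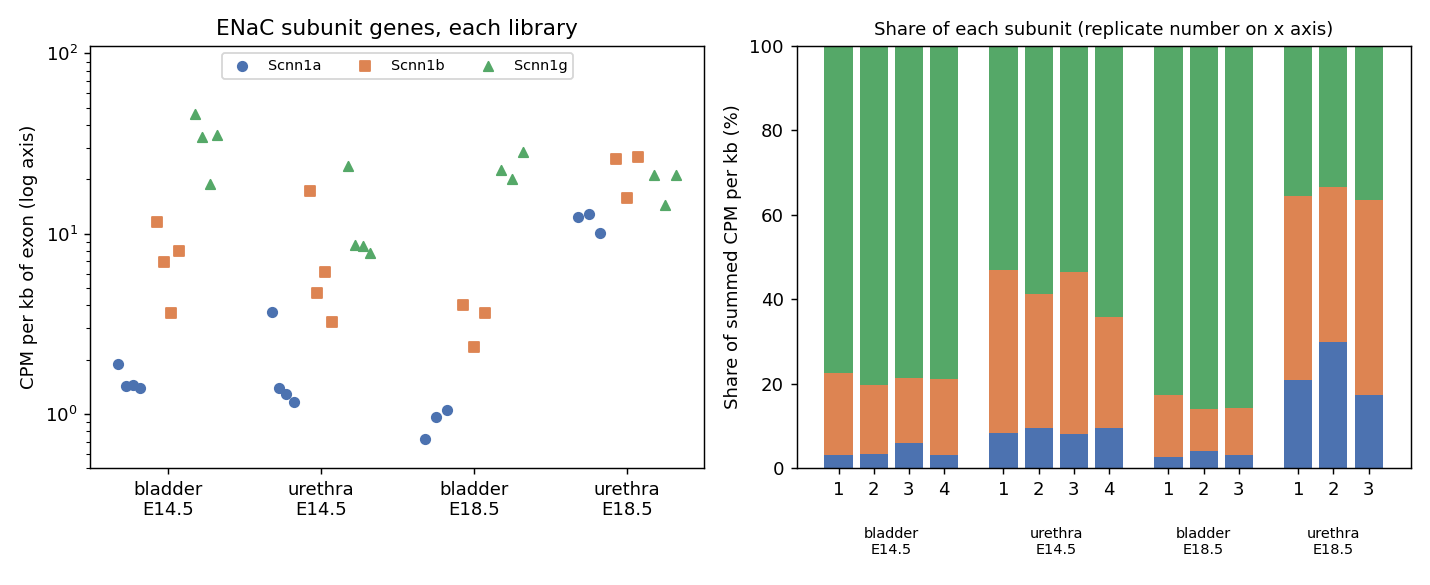
Left: CPM per kb of exon (log axis) of Scnn1a (blue circles), Scnn1b (orange squares) and Scnn1g (green triangles) in each library of the 4 groups. Right: share of each subunit, in the same colours, of the summed CPM per kb in each library, where Scnn1g takes 77.5% to 85.9% in every bladder library and 33.5% to 36.5% in urethra at E18.5.

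Atp1b3, the beta 3 subunit of the sodium-potassium pump, differed little but evenly. It ran from 124 to 132 CPM in bladder and from 88.2 to 106 CPM in urethra at E14.5, and from 157 to 184 CPM against 103 to 121 CPM at E18.5. The tissues did not overlap at either stage. Bladder minus urethra was 0.37 ± 0.08 (adjusted p = 0.00659, edgeR) at E14.5 and 0.55 ± 0.11 (adjusted p = 0.00438) at E18.5. The E14.5 direction depended on the scaling: on the shared epithelial genes it was -0.57 (adjusted p = 0.0414), which was 0.41 above the median of all genes under that scaling, while the E18.5 difference was 0.94 (adjusted p = 0.00135).

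**Figure D4:**
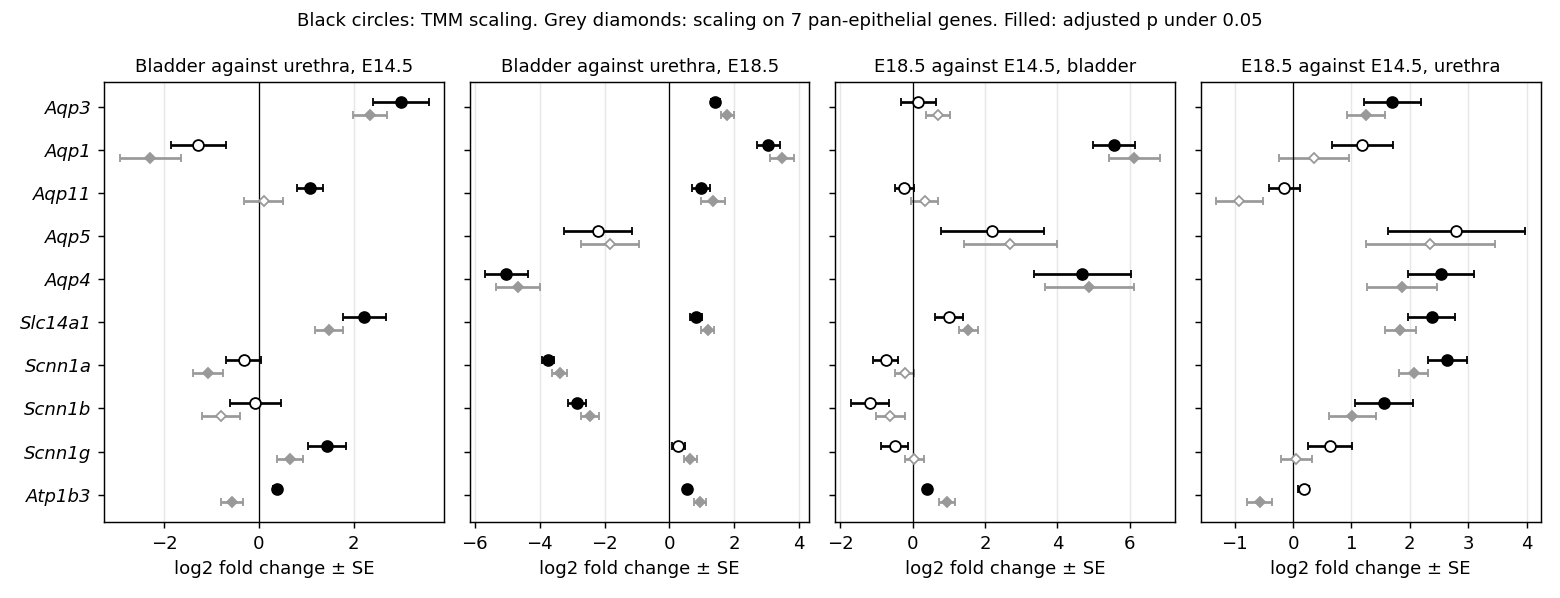
Log2 fold change ± SE (x axis) of each member (rows) in bladder against urethra at E14.5 and E18.5 and in E18.5 against E14.5 within bladder and urethra, with TMM scaling in black and scaling on 7 shared epithelial genes in grey; filled symbols passed an adjusted p of 0.05. Atp1b3 changes sign between scalings at E14.5 and in the urethral stage comparison, and Aqp3, Slc14a1, Scnn1a and Scnn1b keep theirs in each plotted comparison where they passed.

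The stages were compared within each tissue over all 14 libraries in 1 fit. They came from different litters and separate tables, so stage and any difference in preparation cannot be told apart. In bladder 3 members rose from E14.5 to E18.5, beside 40.3% of 18286 genes that passed (19.9% higher and 20.4% lower at E18.5). The number that fell was 0 by edgeR, 1 at an unadjusted p under 0.05, and 1 by DESeq2, in both cases Scnn1b. Aqp1 rose by 5.57 ± 0.59 on the log2 scale (adjusted p = 2.49e-05, edgeR), a 47.4-fold change. In these bladder libraries 9 of 12 mesenchyme and 10 of 10 endothelial markers also rose, and 0 of either fell. The mesenchyme sum in bladder was 880.4 to 4134 CPM at E14.5 and 19130 to 29040 CPM at E18.5. With the mesenchyme score as a covariate the value of Aqp1 was 2.46 (adjusted p = 0.0729), in a fit where 749 of all genes passed. Atp1b3 rose by 0.39 (adjusted p = 0.00431). The third was Aqp4 (adjusted p = 0.0185), which rested on 8 counts against 0, at least 4.27-fold higher against 3 counts in the E14.5 group, and its call was lost without bladder E18.5 replicate 2 (adjusted p = 0.1). Aqp3 was level, at 0.15 ± 0.49 (adjusted p = 0.835). Scnn1a, Scnn1b and Scnn1g had negative values that did not pass, at -0.75 (adjusted p = 0.109), -1.19 (0.0876) and -0.51 (0.312). The median over the 10 members was 0.27, also with Aqp4 at its bound, and over all genes -0.005. Without urethral E14.5 replicate 1, whose spread enters the fit, 6 members passed: Slc14a1 was then also higher at E18.5, and Scnn1a (adjusted p = 0.00335) and Scnn1b (0.017) were lower. Without that library 44.0% of 18223 genes passed, against 40.3% in the full fit. Under the scaling on shared epithelial genes 4 members rose, beside 6001 higher and 303 lower of all genes.

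In urethra 5 members rose, beside 33.0% of 18286 genes that passed (17.3% higher and 15.7% lower at E18.5). The number that fell was 0 by edgeR, at an unadjusted p under 0.05 too, and 0 by DESeq2. Scnn1a rose by 2.65 ± 0.34 (adjusted p = 0.000258, edgeR), Slc14a1 by the value given above and Aqp4 by 2.54 ± 0.56 (adjusted p = 0.00716). Aqp3 rose by 1.70 ± 0.49 (adjusted p = 0.0178) and Scnn1b by 1.55 ± 0.50 (adjusted p = 0.0295). The Scnn1b call was lost without any 1 of 5 urethral libraries (adjusted p from 0.0733 to 0.0861), and the Aqp3 call without urethral E14.5 replicate 2 (0.0582) or E18.5 replicate 2 (0.0633). Without urethral E14.5 replicate 1 the rises were 3.20 for Scnn1a, 2.98 for Slc14a1, 2.80 for Aqp4, 2.63 for Aqp3 and 2.29 for Scnn1b, and Scnn1g (1.17, adjusted p = 0.00381) and Aqp5 (4.13, adjusted p = 0.0272) then passed. Without that library 39.8% of 18223 genes passed, against 33.0% in the full fit. Aqp1 (1.19, adjusted p = 0.0958), Aqp11 (-0.15, adjusted p = 0.706) and Atp1b3 (0.19, adjusted p = 0.139) did not pass in the full fit. The median was 1.63 over the 10 members and 0.001 over all genes. Under the scaling on shared epithelial genes 5 members rose and 1, Atp1b3, fell (-0.57, adjusted p = 0.0384), beside 1055 higher and 8921 lower of all genes.

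The tissue difference itself changed between stages for 3 members. In the interaction of tissue and stage 22.9% of 18286 genes passed, 12.2% with a positive and 10.7% with a negative value. The bladder minus urethra difference of Aqp1 was larger at E18.5 by 4.38 (adjusted p = 0.00271, edgeR), moving from the urethral to the bladder side. Those of Scnn1a and Scnn1b shifted towards urethra, by -3.39 (adjusted p = 0.00101) and -2.74 (adjusted p = 0.0175). With the mesenchyme score as a covariate none of the 3 passed, in a fit where 70 of all genes did. The values were then 1.10 for Aqp1 (adjusted p = 0.78), -2.54 for Scnn1a (0.154) and -1.28 for Scnn1b (0.826). The values for Aqp3 (-1.55, adjusted p = 0.125), Slc14a1 (-1.38, 0.0935) and Scnn1g (-1.14, 0.141) did not pass, and passed without urethral E14.5 replicate 1, at -2.48 (adjusted p = 0.000221), -1.99 (0.0016) and -1.68 (0.00384). Without that library 31.3% of 18223 genes passed, against 22.9% in the full fit. In the full fit the median over the members was -0.87, also with Aqp4 at its bound, and over all genes -0.014. Scaling on shared epithelial genes moved the median of all genes to 1.29 and their split to 12497 positive and 290 negative. Of the members 3 were then positive (Aqp1, Aqp4 and Atp1b3) and 2 negative (Scnn1a and Scnn1b). Aqp4 (3.02, adjusted p = 0.044) rested on 0 bladder counts at E14.5, and at its bound in the full fit its value was -0.358. Atp1b3 (1.51, adjusted p = 0.00171) was 0.215 above the median of all genes.

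Partners of the pump were described from a list of 13 genes. For this list and those that follow, the shares of all genes stand for comparison. At E14.5 23.1% of all genes were higher and 20.9% lower in bladder, and at E18.5 19.3% and 18.6%. Between stages 19.9% rose and 20.4% fell in bladder, and 17.3% rose and 15.7% fell in urethra. At E14.5, 1 of 11 tested was higher in bladder, Fxyd3 (1.52, adjusted p = 0.00177, edgeR), an FXYD protein that modulates the pump, and 2 were lower, Fxyd4 (-1.54, adjusted p = 0.0274) and Fxyd6 (-1.47, adjusted p = 0.0294). Scaling on shared epithelial genes gave 1 higher and 6 lower, beside 540 higher and 11293 lower of all genes. At E18.5, 5 of 12 were higher in bladder, led by Fxyd5 (2.83, adjusted p = 4.99e-05) and Fxyd1 (2.19, adjusted p = 0.00032), and 2 were lower, Fxyd4 (-2.93, adjusted p = 9.21e-05) and the beta 1 subunit Atp1b1 (-1.07). The bladder libraries of that stage held the higher mesenchyme sum given above. With the mesenchyme score as a covariate 0 partners passed at E18.5 by edgeR, in a fit where only 1 of all genes did. At an unadjusted p under 0.05, 1 was higher and 1 lower in that fit. Per kb of exon, Atp1b1 averaged 115 CPM in bladder and 95.4 CPM in urethra at E14.5, and 104 and 211 CPM at E18.5. In the same order Atp1b3 averaged 53.6, 40.5, 70.2 and 46.0 CPM per kb. In bladder 6 of 12 partners rose between stages, among them Fxyd5 (5.25, adjusted p = 4.73e-06) and Fxyd1 (3.6, adjusted p = 3.3e-05). In the same libraries 9 of 12 mesenchyme, 8 of 8 smooth muscle, 10 of 10 endothelial and 8 of 8 immune markers rose, and with the mesenchyme score as a covariate 2 partners rose. In urethra 6 of 12 rose, among them Fxyd3 (1.45), Fxyd4 (1.94) and Fxyd5 (1.37). Under the scaling on shared epithelial genes 2 rose and 1 fell in urethra, beside 1055 higher and 8921 lower of all genes.

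Regulators of ENaC were described from a list of 15 genes, all tested. At E14.5, 6 were higher in bladder and 4 lower, led by the mineralocorticoid receptor Nr3c2 (1.90, adjusted p = 0.000528, edgeR), the kinase Oxsr1 (0.71, adjusted p = 0.000623) and the channel-activating protease Prss8, prostasin (1.62, adjusted p = 0.000806). Under the scaling on shared epithelial genes 3 were higher and 9 lower, beside 540 higher and 11293 lower of all genes. Oxsr1 was then at -0.24 (adjusted p = 0.334). At E18.5, 6 were higher in bladder and 3 lower, and the smallest adjusted p belonged to Sgk1, an aldosterone-induced kinase that raises ENaC at the cell surface (-1.76, adjusted p = 3.07e-05), and to the protease Tmprss4 (-1.76, adjusted p = 0.0012). Sgk1 stood at 20.3 to 22.9 CPM in bladder and at 64.9 to 77.8 CPM in urethra at that stage, and Tmprss4 at 16.9 to 21.6 CPM against 44.0 to 90.3 CPM. Neither gene overlapped between tissues. Both were among the 3 regulators higher in urethra, as Scnn1a and Scnn1b were, while 6 of the 15 went the other way. The protease Prss8 stood at 70.4 to 104 CPM in bladder and at 55.6 to 61.5 CPM in urethra at E18.5. In urethra 5 of the 15 rose between stages and 2 fell, with Sgk1 at 2.12 (adjusted p = 7.7e-06) and Tmprss4 at 2.60 (adjusted p = 0.00023), and in bladder 3 rose and 4 fell. Under the scaling on shared epithelial genes 2 rose and 7 fell in urethra, beside 1055 higher and 8921 lower of all genes. In bladder 7 then rose, beside 6001 higher and 303 lower of all genes. Sgk1 and Tmprss4 still rose in urethra under that scaling, by 1.31 (adjusted p = 0.00347) and 2.00 (adjusted p = 0.000248). In the interaction 3 were positive and 4 negative, Tmprss4 (-3.28, adjusted p = 0.000852) among the negative, beside 12.2% positive and 10.7% negative of all genes. Under that scaling 10 were positive and 1 was negative, Tmprss4 (-2.14, adjusted p = 0.000754), beside 12497 positive and 290 negative of all genes.

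**Figure D5:**
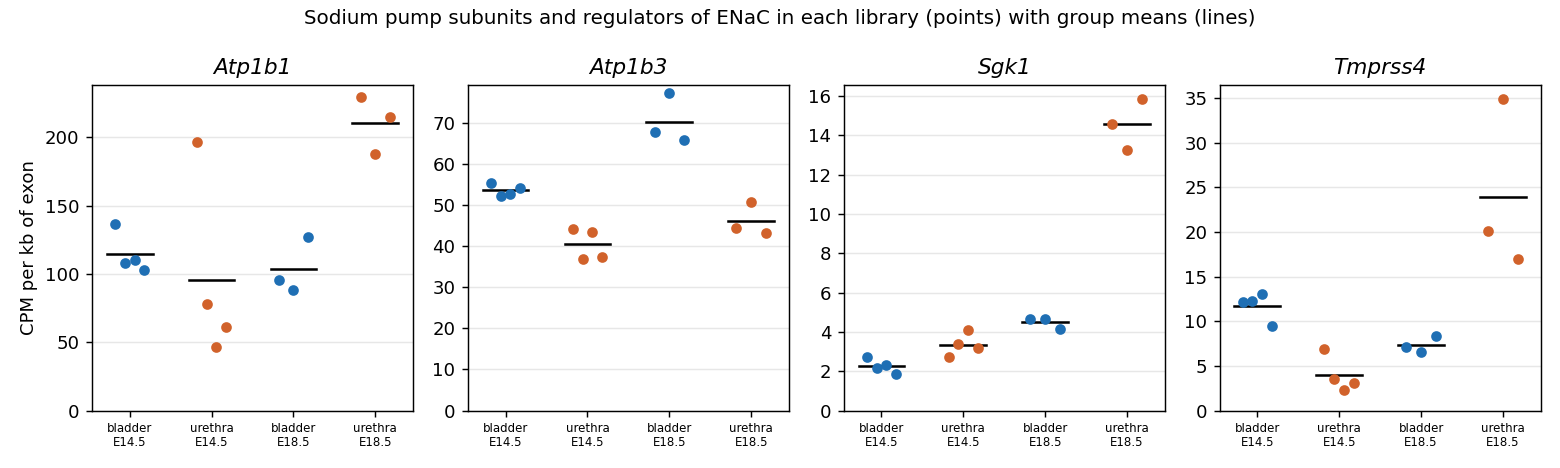
CPM per kb of exon (y axis, from 0) in each library, with group means as lines, for the pump subunits Atp1b1 and Atp1b3 and the ENaC regulators Sgk1 and Tmprss4. Sgk1, Tmprss4 and Atp1b1 have their highest group means in urethra at E18.5, and Atp1b3 has its highest in bladder at E18.5.

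Other routes of sodium entry, a list of 12 acid-sensing channels, sodium-proton exchangers and cotransporters, gave 3 higher and 1 lower in bladder of 7 tested at E14.5 and 3 higher and 2 lower of 8 tested at E18.5. With the shared epithelial scaling the splits were 1 higher and 3 lower, and 5 higher and 2 lower. All genes then split into 540 higher and 11293 lower at E14.5, and 5143 higher and 1338 lower at E18.5. The sodium-potassium-chloride cotransporter Slc12a2 was higher in urethra at both stages, by -0.59 (adjusted p = 0.0059, edgeR) and -1.42 (adjusted p = 0.000987), and rose in urethra between stages by 0.98 (adjusted p = 0.00128), or by 0.28 (adjusted p = 0.238) under the scaling on shared epithelial genes. The sodium-proton exchanger Slc9a2 was higher in bladder at both stages, by 3.59 (adjusted p = 0.013) and 1.71 (adjusted p = 0.00478). Of 7 genes of the response to high osmolarity, 2 of 5 tested were higher and 1 lower in bladder at E14.5, and 4 of 6 higher and 1 lower at E18.5. With the shared epithelial scaling 0 were higher and 3 lower at E14.5 by edgeR, all 5 having negative values, and the E18.5 split was 4 and 1. Akr1b3, the aldose reductase that makes the osmolyte sorbitol, and Slc5a3, a myo-inositol carrier, were higher in bladder at both stages, by 0.76 (adjusted p = 0.0121) and 0.60 (adjusted p = 0.0373) at E14.5, where the scaling on shared epithelial genes gave -0.20 and -0.38, neither passing, and by 1.20 (adjusted p = 0.000472) and 1.11 (adjusted p = 0.000571) at E18.5. The exception at E18.5 was the vasopressin receptor Avpr2, which passed as higher in urethra on 101 counts there against 7 in bladder.

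The genes most like each member were taken as those with the highest Pearson r of log2 CPM over the 14 libraries, a description over libraries that share groups. For Aqp3 these were Fer1l4 (r = 0.991), Abcc3 (0.990) and Pon2 (0.989). For Slc14a1 they were Krt7, a keratin of simple and urothelial epithelium (0.987), Prdx5 (0.986) and M6pr (0.983). For Scnn1a they were Iapp (0.975), Hrnr (0.973) and Cadm4 (0.963), and for Scnn1b Sox9 (0.920), Rpgrip1 (0.917) and Dyrk2 (0.916). For Scnn1g they were Kremen1 (0.967), Gne (0.962) and Ucp2 (0.959), for Aqp1 Fcgrt (0.985), Glt8d2 (0.985) and Entpd1 (0.984), and for Atp1b3 Dad1 (0.985), Edem1 (0.976) and Hmox1 (0.975). The leading genes for Aqp4, Aqp5 and Aqp11 were Car12 (0.968), Prlr (0.897) and Fam78b (0.958).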

How the data were processed

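RNA-seq counts per gene, as deposited by the authors for 14 libraries in 2 tables, 1 per stage, were the values used. Per the labels' protocols, poly(A) RNA went through a directional library kit and was read as pairs. Tools named in the submitters' processing notes are HISAT2 2.2.1 and SAMtools 1.9, with bcl2fastq, and the build there is GRCm38. How the reads were counted, with which strand setting and gene models, is not given in the sources used here. The ends and exon lengths of all 10 members in the tables match GENCODE M21. On the opposite strand, Cog7 overlaps Scnn1b and a non-coding gene overlaps Aqp4, each with 0 shared exon bases.

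Groups came from the labels. The series text gives 4 litters at E14.5, the extraction notes 3 per kind of sample; 4 were taken here. The members and gene lists were chosen with earlier results of these data known. Counts were scaled by TMM and filtered by filterByExpr. The test was edgeR's quasi-likelihood test (edgeR 4.0.16, R 4.3.3), the p-values were adjusted by Benjamini-Hochberg over all genes tested, and the threshold was 0.05. Tissues were compared within a stage (8 and 6 libraries), and stages and the interaction over all 14. CPM used the TMM sizes of all 14 libraries, log2 CPM a prior count of 2, and CPM per kb the exon length in the tables. The p-values measure the spread between litter pools. Where a group had 0 counts, the minimum fold sets 3 counts in that group and covers counting error only. Replicates differed by more than counting noise, with a chi-square per gene from 10.3 to 105.9.

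All members were named. Of each other list, genes were named among the 3 with the smallest adjusted p. Names outside that rule (Atp1b1, Avpr2, Aqp2, Aqp7, Aqp8, Slc14a2, Myod1, Acta1, Actn2, Pecam1) were chosen after their values were seen. Some genes of the lists are not reported here by name. The alternatives were DESeq2 size factors, scaling on 7 shared epithelial genes, no filter, at least 1 CPM, DESeq2 1.42.0, a mesenchyme score of 12 genes as covariate, a log2 fold change of at least 1, all libraries in 1 fit, a block on replicate number and leaving out each library. The series text says that each litter gave both tissues, but not that equal replicate numbers share a litter. The column names number bladder and urethral libraries in alternation, which would also arise if each litter were numbered in turn. The correlation of same-numbered deviations ran from -0.104 to 0.391 at E14.5 and from -0.189 to 0.138 at E18.5. That of different-numbered ones ran from -0.392 to 0.262 and from -0.268 to 0.359. So few values cannot decide whether the numbers pair the libraries. The main tests left them unpaired, and the replicate block was an alternative. The fits were tested on simulated data.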

Additional observations from a re-analysis of the deposited data

Results flagged for a closer look

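The tissue difference between bladder and urethra changed between stages for 3 of 10 members, by the interaction test of edgeR with adjusted p as given in the report. Of all 18286 genes 22.9% passed the same test. The value was 4.38 on the log2 scale for Aqp1, -3.39 for Scnn1a and -2.74 for Scnn1b. With the mesenchyme score as a covariate none of the 3 passed, in a fit where 70 of all genes did.

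Single libraries stood far from their group for 5 values among the 19 groups of 4 libraries examined, where chance flags about 1 in 20. Of these, 4 belonged to urethral E14.5 replicate 1, with the highest Aqp3 (145.2 CPM), Scnn1a (15.26 CPM) and Scnn1g (70.55 CPM) and the lowest Aqp1 (4.355 CPM) of its group. That library also had the highest urothelial marker sum of its group, 1833 CPM, and its lowest endothelial sum, 30.75 CPM. The other was Scnn1a in bladder E14.5 replicate 1, the highest of its group at 7.754 CPM.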

How the results depend on the processing

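The count of members past the threshold was 5 at E14.5, 8 at E18.5, 3 for stage in bladder, 5 for stage in urethra and 3 for the interaction. Leaving out each library gave 4 to 6, 7 to 8, 2 to 6, 3 to 7 and 3 to 6 in that order. The count of 6 for stage in bladder and the 6 for the interaction came without urethral E14.5 replicate 1. In those fits 44.0% and 31.3% of all genes passed. The 3 for stage in urethra came without urethral E14.5 replicate 2, where 24.3% of all genes passed. With the mesenchyme score as a covariate the counts were 2 at E14.5, 0 at E18.5, 1 for stage in bladder, 6 for stage in urethra and 0 for the interaction, beside 3228, 1, 749, 6756 and 70 of all genes. At an unadjusted p under 0.05 edgeR with the score gave 4 members at E18.5 and 1 in the interaction, and DESeq2 without the score called 8 and 3. A log2 fold change of at least 1 left 5 at E18.5. DESeq2 gave 5 for stage in bladder, beside 43.3% of all genes. Scaling on shared epithelial genes gave 5 for the interaction, beside 69.9% of all genes.

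The replicate block gave 5 at E14.5, 7 at E18.5 (Aqp11 adjusted p = 0.0607) and 5 for the interaction, where Aqp3 (-1.91, adjusted p = 0.0147) and Scnn1g (-1.22, adjusted p = 0.0235) were added. In those fits 46.0%, 30.6% and 23.6% of all genes passed, in that order. With the replicate block the E14.5 value of Scnn1b was 0.10. In the paired form, by sign flips, the exact p of the Scnn1g to Scnn1a ratio was 0.125 at E14.5 and 0.25 at E18.5, each the smallest value that form allows.

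Of 878 single-member values under the alternatives, 792 kept direction and side of the threshold, 35 no longer passed, 28 newly passed and 23 changed sign. Both values of Atp1b3 that changed sign and passed came from scaling on shared epithelial genes, -0.57 at E14.5 and -0.57 for stage in urethra. The other 21 did not pass. Under that scaling they were 0.33 (Aqp11) and 0.043 (Scnn1g) for stage in bladder and 0.35 (Aqp5) and 1.24 (Aqp11) for the interaction. With the mesenchyme score they were 0.013 (Aqp1, E14.5), 0.15 (Scnn1a), 0.35 (Scnn1b) and 0.95 (Scnn1g) for stage in bladder, and 0.96 (Aqp5), 0.036 (Aqp11), 0.10 (Slc14a1) and 0.27 (Scnn1g) for the interaction. Leaving out each library gave -0.495 to 0.23 for Scnn1a and -0.366 to 0.66 for Scnn1b at E14.5, -4.00 to 3.617 for Aqp5 for stage in bladder, and -6.807 to 0.82 for Aqp5 and -0.249 to 0.12 for Aqp11 for the interaction. The cause of these changes was not tested. Depth limits Aqp4 and Aqp5, whose groups held 0 to 361 counts.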
